A study of Arabidopsis thaliana with 6 samples.

Results

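Chlorophyll is completed in the plastid by a short set of enzymes that take over once protochlorophyllide, the last precursor made in darkness, has formed. The 7 Arabidopsis thaliana genes described here encode these enzymes and were chosen by gene identifier. They are the protochlorophyllide oxidoreductases PORA, PORB and PORC, the divinyl reductase DVR, the chlorophyll synthase CHLG, chlorophyll a oxygenase (CAO) and the geranylgeranyl reductase CHLP. Of the 11167 genes in the deposited table, 5 were members (PORA, PORB, PORC, CHLG and CHLP), and all 5 were among the 10622 genes tested. DVR (AT5G18660) and CAO (AT1G44446) were not analysed here.

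RNA was profiled in whole seedlings of the flu 1-1 mutant, 2 weeks old, in the Col-0 background. Seedlings in water were kept dark for 4 h, or for 0 h in the group they were set against, and both then received light at 30 µE for 30 min. Each group had 3 libraries. The methods of the study give 7 whole seedlings per biological replicate for RNA extraction and other assays, but no number under RNA sequencing. Libraries were prepared by bulk MARS-seq, which counts reads at the 3′ ends of transcripts. Both groups carried the flu mutation, and there was no wild type. No group spent 4 h in the light, and none was sampled before the 30 min of light. Darkness, time in water, time of day and singlet oxygen released by the mutant in the light therefore cannot be told apart. One treatment label describes the 2 times as light exposure, but the protocol gives darkness and then light, and the protocol was followed. The labels give growth under continuous light and the methods a light/dark cycle.

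FLU is a plastid protein that restrains the synthesis of 5-aminolevulinic acid when protochlorophyllide builds up, so flu mutants overaccumulate that pigment in the dark and release singlet oxygen when illuminated. In flowering plants the POR enzymes need light to reduce protochlorophyllide to chlorophyllide. PORA is known from dark-grown seedlings, in which its transcript is abundant and declines in the light. PORB acts in dark-grown and green tissue, and PORC in green tissue and strong light. DVR reduces a vinyl group of the ring to ethyl, CAO converts chlorophyll a into chlorophyll b, CHLP reduces the geranylgeranyl chain to phytyl, and CHLG joins that chain to chlorophyllide.

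The 3 POR genes lie apart in the genome. In the RefSeq annotation of TAIR10.1, PORA (AT5G54190) occupies chr5:21990864-21992814 on the minus strand with 5 exons, PORB (AT4G27440) chr4:13725546-13727440 on the plus strand with 4 exons, and PORC (AT1G03630) chr1:907523-909650 on the plus strand with 5 exons. CHLG (AT3G51820) occupies chr3:19215930-19219128 on the minus strand with 14 exons, and CHLP (AT1G74470) chr1:27991165-27993445 on the plus strand with 3 exons. The coding sequences of PORA and PORB were 82.5% identical, those of PORA and PORC 72.7%, and those of PORB and PORC 73.5%. Over the last 300 bases of the annotated transcripts, identity was 51.7% for PORA and PORB, 51.0% for PORA and PORC, and 52.7% for PORB and PORC. The longest run of bases shared there by any pair was 10, so the 3 transcripts differ over those bases. Over whole transcripts, PORA and PORB shared a run of 48 bases. Where in the transcripts the counted reads fell was not examined.

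The 250 bases before each POR gene are printed because these isoforms are the members on which the results below turn. Each runs 5′ to 3′ in the direction of the gene and ends at the base before the annotated start, and capitals mark the matches to the motifs searched.
PORA, chr5:21992815-21993064, minus strand: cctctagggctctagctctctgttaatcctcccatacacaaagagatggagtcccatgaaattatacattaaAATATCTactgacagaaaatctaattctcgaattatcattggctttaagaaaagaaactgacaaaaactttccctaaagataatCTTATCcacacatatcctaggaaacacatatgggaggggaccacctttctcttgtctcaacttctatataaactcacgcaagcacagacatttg
PORB, chr4:13725296-13725545, plus strand: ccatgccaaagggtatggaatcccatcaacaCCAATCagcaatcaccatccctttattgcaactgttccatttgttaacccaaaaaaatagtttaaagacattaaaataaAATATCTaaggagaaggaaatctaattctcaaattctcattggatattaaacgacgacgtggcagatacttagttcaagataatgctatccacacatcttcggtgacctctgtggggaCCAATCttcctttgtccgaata
PORC, chr1:907273-907522, plus strand: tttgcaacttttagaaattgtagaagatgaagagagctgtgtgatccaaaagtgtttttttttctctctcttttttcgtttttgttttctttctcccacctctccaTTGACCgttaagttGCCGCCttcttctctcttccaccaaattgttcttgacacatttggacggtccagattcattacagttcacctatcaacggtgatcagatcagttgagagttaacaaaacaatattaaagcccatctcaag

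Motifs were searched on both strands, and no match in these 3 stretches overlapped another. PORA and PORB both held AATATCT, the core of the evening element of clock-regulated genes, at -178 to -172 in PORA and -140 to -134 in PORB, counted back from -1 at the base before the start. The PORC stretch held no match to it, CHLP held one at -49 to -43, and 10% of the 27443 stretches of this length before protein-coding genes did. PORB held CCAATC, a site type of GOLDEN2-LIKE factors, at -219 to -214 and at -22 to -17 (10.2% of all stretches). PORA held GATAAG, the I-box, on the reverse strand at -94 to -89, where the printed strand reads CTTATC (12.3% of all). PORC held TTGACC, the W-box core of WRKY factors, at -144 to -139 and GCCGCC, the GCC-box of ethylene response factors, at -130 to -125. The W-box core stood in 12.2% of all stretches and in those of DVR and CHLP, and the GCC-box in 1.87%. CACGTG, the G-box, was found in 6.49% of all stretches and, of the 7 genes, before CAO alone, and CACGCGC, a FHY3 and FAR1 site, in 1.06% and before none of the 7. PORA and PORB shared 4 runs of 10 or more bases, among them AAATCTAATTCTC and TATCCACACAT, and neither shared such a run with PORC. Letters in a window are no measure of binding.

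After 4 h of darkness and light, all 5 measured members had lower transcript levels than after 0 h. By edgeR's quasi-likelihood test, with p-values adjusted by the Benjamini-Hochberg method over all genes tested, 5 of the 5 were lower at 0.05 and 0 were higher. Across all genes, 8.18% were called lower and 8.37% higher, or 16.6% in either direction. DESeq2 called 3 of the 5 lower (PORB, PORC and CHLP) and 6.83% of the genes to which it gave an adjusted p. The 4 h and 0 h libraries did not overlap for any of the 5, a state found for 16.9% of all genes in the downward direction. PORA entered the test through its 0 h reads alone, so its direction was in part fixed by the filter. Without PORA, 4 of 4 members were called lower, each without overlap between the groups. Their median log2 fold change was -1.20, against -0.06 over all genes tested. Of these 4, PORB and PORC were called with a fitted fall of at least 2-fold, where 4.89% of all genes met both conditions. PORA met both as well, with the limit set by the filter. Levels below are CPM, the reads of a gene relative to its library size, corrected by the TMM factors of edgeR. Labels do not say that the replicates were separate cultures, so p-values measure the spread between these libraries, and in bulk RNA fewer cells of a type cannot be told apart from less RNA per cell.

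**Figure D1:**
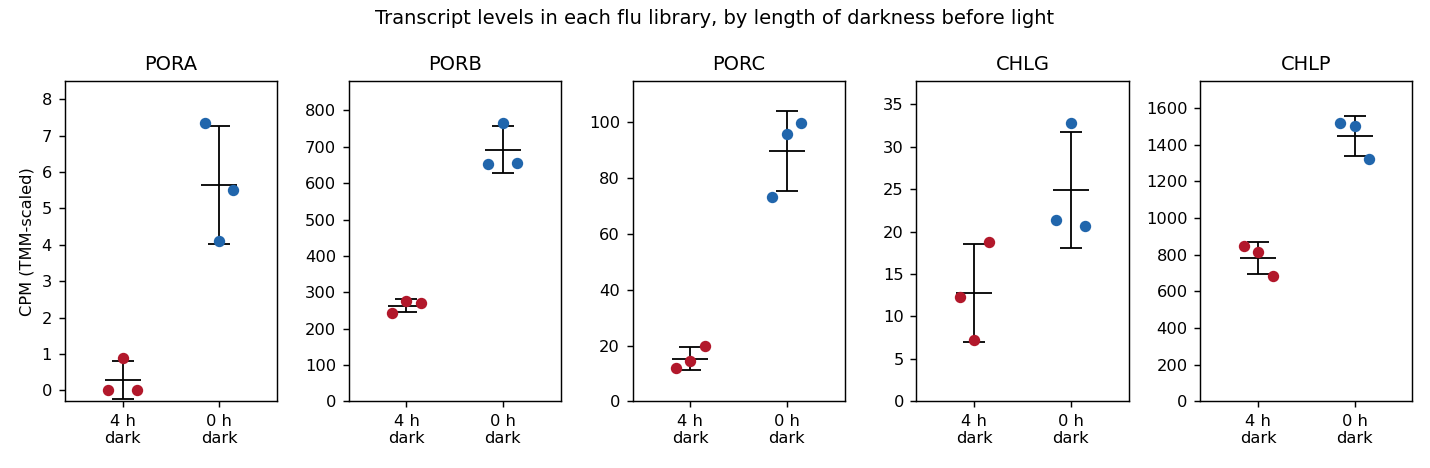
Transcript level (CPM on TMM-scaled library sizes) of PORA, PORB, PORC, CHLG and CHLP in each library, 4 h of darkness left of 0 h. Points are the 3 libraries of each group, the long bar is their mean and the short bars 1 SD, and each gene has its own linear axis. No 4 h point reaches a 0 h point in any panel, and the nearest approach is in CHLG, with 18.8 CPM after 4 h and 20.6 CPM after 0 h.

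PORB carried most of the POR transcript in every library. It had 243, 276 and 271 CPM in the 4 h libraries, against 654, 766 and 656 CPM in the 0 h libraries. The highest 4 h library lay well under the lowest 0 h library, which was 2.37 times as high. PORB averaged 263 ± 17.9 CPM after 4 h and 692 ± 63.9 CPM after 0 h (SD, n = 3 each), and fell 2.63-fold (95% interval 2.14 to 3.24), or by 1.40 on the log2 scale (SE 0.15, adjusted p from edgeR 1.2e-07). These levels rest on 1114 reads after 4 h and 3516 after 0 h.

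PORC, the isoform of green tissue, showed a wider gap. Its level was 11.8, 14.4 and 19.8 CPM in the 4 h libraries and 73.4, 95.9 and 99.8 CPM in the 0 h libraries. Every 0 h library was at least 3.71 times as high as every 4 h library. PORC averaged 15.4 ± 4.05 CPM after 4 h and 89.7 ± 14.3 CPM after 0 h, with 62 and 452 reads behind the 2 levels. It fell 6.07-fold (95% interval 4.32 to 8.53), which is -2.60 in log2 units (SE 0.24, adjusted p from edgeR 1.34e-08). When the same counts were tested against a 2-fold change (edgeR glmTreat), PORC was the 1 member called (adjusted p = 1.5e-05), and 0.452% of all genes were called lower in that test.

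PORA was near the limit of detection. It had 0, 1 and 0 reads in the 4 h libraries (0, 0.903 and 0 CPM) and 12, 8 and 8 reads in the 0 h libraries (7.34, 4.10 and 5.50 CPM). All 3 libraries of the 4 h group were under a floor of 3 reads and all 3 of the 0 h group above it. The scaled level was 24.0 times as high after 0 h as after 4 h, with an exact (Clopper-Pearson) 95% interval of 3.97 to 981 from the 28 reads after 0 h and the 1 read after 4 h, which covers counting error only. Its edgeR adjusted p was 0.00462. DESeq2 gave it no adjusted p.

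**Figure D2:**
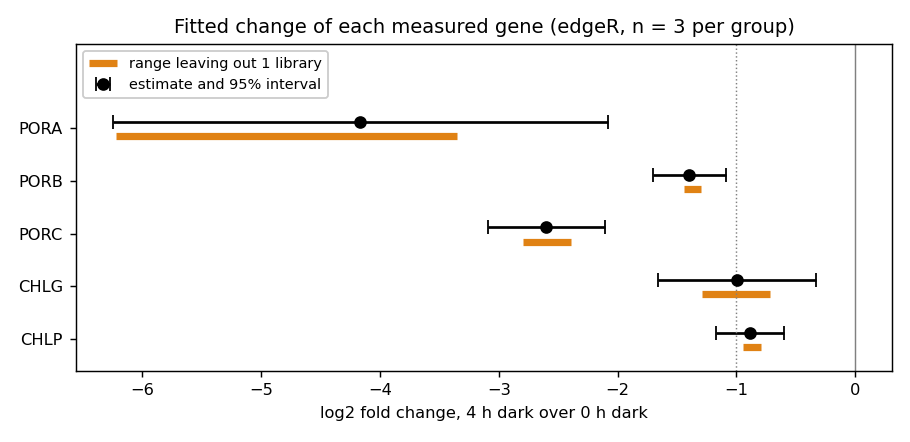
Fitted log2 fold change, 4 h over 0 h of darkness, of the 5 measured genes. Points are edgeR estimates from 3 libraries per group, thin bars their 95% intervals and thick bars the range of estimates when each library was left out in turn. The dotted line marks a 2-fold fall, and the whole intervals of PORA, PORB and PORC lie beyond it. These intervals are not adjusted for the number of genes, and the test against 2-fold (edgeR glmTreat) called PORC alone. The PORA estimate rests on 1 read after 4 h and is no bound on its fold change.

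PORC took a smaller share of POR reads in the 4 h libraries. Of all PORA, PORB and PORC reads, PORC made up 4.64% (exact 95% interval 3.05 to 6.73), 4.95% (2.86 to 7.92) and 6.80% (4.2 to 10.3) in the 4 h libraries. In the 0 h libraries its share was 9.98% (8.35 to 11.8), 11.1% (9.62 to 12.7) and 13.1% (11.2 to 15.2). The shares of the 2 groups did not overlap, although the counting interval of the highest 4 h library reached into those of 2 of the 3 libraries of the 0 h group. The mean share was 5.47 ± 1.17% after 4 h and 11.4 ± 1.59% after 0 h, a difference of -5.92 percentage points (exact two-sided permutation p = 0.1, the smallest that 3 against 3 libraries allow). The log2 ratio of PORC to PORB was -4.10 ± 0.31 after 4 h and -2.95 ± 0.22 after 0 h, a difference of -1.15 (exact permutation p = 0.1).

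The PORB share was larger in the 4 h libraries. It nearly restates the PORC share, since PORA held at most 0.998% of POR reads in any library. PORB held 95.4, 94.7 and 93.2% of POR reads in the 4 h libraries and 89.0, 88.4 and 86.2% in the 0 h libraries, again with no overlap. The PORC to PORB ratio, put the other way, was 20.5, 19.1 and 13.7 PORB reads per PORC read after 4 h, against 8.92, 7.98 and 6.57 after 0 h. These shares stand within a smaller total, since the 3 genes together reached 255, 292 and 291 CPM after 4 h and 735, 866 and 761 CPM after 0 h. The PORB to PORA ratio depended on the reads added to each count, PORA being at 0 in 2 libraries. Its log2 difference was 2.05 (4 h over 0 h) with 0.5 reads added to each count and 0.60 with 2 reads added (exact permutation p = 0.1 and p = 0.4). Across the 3 comparisons of isoforms (PORC share, PORC to PORB, PORB to PORA) the Benjamini-Hochberg adjusted p was 0.1 for each with 0.5 reads added. The first 2 rest on nearly the same contrast.

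**Figure D3:**
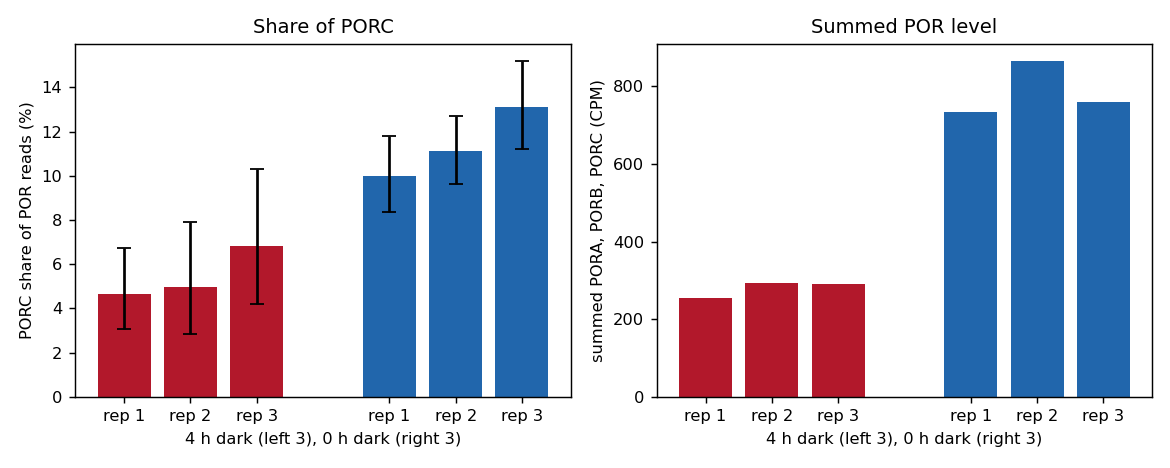
Left, PORC as a percentage of PORA, PORB and PORC reads in each library, with exact 95% counting intervals as bars; right, the summed CPM of the 3 genes in each library. The 3 libraries after 4 h stand left of the 3 after 0 h, and no 4 h share or sum reaches the lowest of the 0 h group (9.98% and 735 CPM).

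CHLP, which makes the phytyl chain, was the most abundant member. It had 847, 817 and 683 CPM in the 4 h libraries and 1520, 1500 and 1320 CPM in the 0 h libraries. The groups did not overlap, with the lowest 0 h library 1.55 times as high as the highest 4 h library. CHLP averaged 783 ± 87.4 CPM after 4 h and 1450 ± 112 CPM after 0 h, and fell 1.85-fold (95% interval 1.51 to 2.25), which is -0.88 in log2 units (SE 0.14, adjusted p from edgeR 6.03e-05). With 3458 reads after 4 h and 7328 after 0 h it was also the most deeply counted.

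CHLG, the chlorophyll synthase, was the member whose call turned on single libraries. Its level was 12.3, 7.22 and 18.8 CPM in the 4 h libraries and 21.4, 32.8 and 20.6 CPM in the 0 h libraries. The groups were separate by a narrow margin, the lowest 0 h library being 1.10 times as high as the highest 4 h library. CHLG averaged 12.8 ± 5.80 CPM after 4 h and 25.0 ± 6.82 CPM after 0 h on 54 and 129 reads, a 1.99-fold fall (95% interval 1.26 to 3.16; log2 fold change -0.995, SE 0.32, edgeR adjusted p = 0.0333). The call was lost when replicate 1 or 2 of the 4 h group or replicate 1 or 2 of the 0 h group was left out (edgeR adjusted p = 0.0963, 0.173, 0.0501 and 0.194), and in DESeq2 (adjusted p = 0.0937).

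Members differed widely in level. Per kilobase of annotated transcript, the mean levels were 375 CPM after 4 h and 693 after 0 h for CHLP, and 161 and 422 for PORB. PORC had 8.59 CPM per kilobase after 4 h and 50.2 after 0 h, CHLG 7.38 and 14.4, and PORA 0.191 and 3.58. Libraries of neighbours in this order did not overlap except for PORC and CHLG after 4 h, where PORC ranged over 6.62 to 11.1 and CHLG over 4.18 to 10.9 CPM per kilobase. After 0 h those 2 genes stood apart, at 41.1 to 55.8 for PORC and 11.9 to 19.0 for CHLG. Since 3′ reads do not scale with length, the order is approximate, and it was the same in plain CPM. Together the 5 genes took 0.112, 0.108 and 0.0992% of reads in the 4 h libraries and 0.236, 0.243 and 0.205% in the 0 h libraries.

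Other genes overlap the ends of 3 measured members on the opposite strand, and whether counting used strand is not given in the sources used here. AT4G27450 overlaps PORB by 71 bases and was higher after 4 h, at 13.2, 15.3 and 3.96 CPM against 1.22, 2.56 and 2.06 CPM after 0 h (log2 fold change 2.45, SE 0.55, edgeR adjusted p = 0.00236). It moved opposite to PORB, was far below it in every library and lay near the floor of 3 reads after 0 h. AT1G03620 overlaps PORC by 121 bases and differed by 0.20 in log2 units (SE 0.48, adjusted p from edgeR 0.833). AT1G74480 overlaps CHLP by 414 bases and was not tested. Whether reads in these overlaps were lost from or added to the counts of the members was not tested.

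The profiles most like those of PORB and PORC were sought among 5798 genes with a mean of at least 20 reads, as the root mean square difference of log2 CPM, centred on each gene's mean, over the 6 libraries. For PORB these were AT3G04790, a ribose 5-phosphate isomerase (0.03), ESM1 (0.10) and RBCS2B, a small subunit of Rubisco whose family copies the counts may not separate (0.11). Their log2 fold changes were -1.39, -1.49 and -1.46, against -1.40 for PORB. For PORC they were NCED4, of the carotenoid cleavage dioxygenase family (0.17), AT1G54010, a GDSL-type lipase (0.27), and Lhca6, a photosystem I antenna protein (0.28), with log2 fold changes of -2.33, -2.00 and -2.24 against -2.60 for PORC. A smaller value means a closer profile. Fold changes near those of PORB and PORC follow from this choice, since the same 6 libraries gave both. PORC had 62 reads after 4 h and PORB 1114, so counting error weighs more in the PORC values. The values of the 2 genes were therefore not compared.

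The branch that supplies protochlorophyllide was lower too, by less at the median. Of 21 genes listed between glutamate and protochlorophyllide, 15 were tested, with 9 lower and 0 higher at an edgeR adjusted p of 0.05 (8.18% and 8.37% of all genes) and a median log2 fold change of -0.63. Without replicate 2 of the 4 h group 5 were lower. GUN5, the H subunit of magnesium chelatase, had 216, 240 and 231 CPM after 4 h and 377, 510 and 531 CPM after 0 h (log2 fold change -1.05, SE 0.16, edgeR adjusted p = 3.43e-05). CRD1, a subunit of the cyclase that closes the fifth ring, had 16.8, 20.8 and 13.8 CPM after 4 h and 35.5, 43.6 and 44.7 CPM after 0 h (-1.26, SE 0.25, edgeR adjusted p = 0.000704). Neither gene's libraries overlapped between groups. LIN2, a coproporphyrinogen oxidase, and HEMC, the porphobilinogen deaminase, had log2 fold changes of -1.61 (SE 0.25) and -1.45 (SE 0.30). The log2 fold changes of the 15 ran between -1.61 and -0.31. Those of PORB, CHLG and CHLP lay inside this range and that of PORC outside it. That of PORA (-4.17) also lay outside, but rests on 1 read after 4 h. Both lists hold genes of 1 pathway in the same libraries, and the difference between them was not tested.

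Supply of the chain that CHLP reduces was lower in part. Of 10 tested genes for geranylgeranyl diphosphate and phytyl, 4 were lower and 0 higher (8.18% and 8.37% of all genes), with a median log2 fold change of -0.51. The count lower was 2 in DESeq2 and without replicate 1 of the 4 h group or replicate 1 or 2 of the 0 h group, and 1 was called higher with no filter and without replicate 2 or 3 of the 4 h group. GGPS1, the plastid geranylgeranyl diphosphate synthase, had 15.9, 10.8 and 8.90 CPM after 4 h and 30.0, 30.8 and 32.3 CPM after 0 h (log2 fold change -1.30, SE 0.28, edgeR adjusted p = 0.00167). DXS, the first enzyme of the plastid isoprenoid pathway, fell by 0.86 on the log2 scale (SE 0.18). VTE6, a phytyl phosphate kinase, and DXR, the enzyme after DXS, were lower by 0.81 and 0.70 on the same scale. The VTE6 call was lost without replicate 1 or 2 of either group (edgeR adjusted p between 0.0611 and 0.197), and the DXR call without replicate 1 or 3 of the 4 h group or any single 0 h library (0.0536 to 0.227).

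Proteins that work beside the late enzymes did not move as a group. LIL3:1 and LIL3:2, light-harvesting-like proteins that bind geranylgeranyl reductase, were lower. LIL3:1 had 120, 116 and 142 CPM after 4 h and 234, 261 and 280 CPM after 0 h (log2 fold change -1.04, SE 0.16, edgeR adjusted p = 4.65e-05). LIL3:2 had 7.28, 3.61 and 2.97 CPM after 4 h and 19.0, 10.8 and 28.2 CPM after 0 h (-1.87, SE 0.42, edgeR adjusted p = 0.00237). These were the 2 called of 6 tested partners, 0 were higher (8.18% and 8.37% of all genes were called lower and higher), and the median log2 fold change of the 6 was 0.08. FLU itself had 154, 215 and 191 CPM after 4 h and 172, 110 and 136 CPM after 0 h, overlapping groups that differed by 0.41 in log2 units (SE 0.18, adjusted p from edgeR 0.124), and its 3′ reads say nothing about the lesion in flu 1-1. Among genes of the chlorophyll b cycle and oxygenases related to CAO, 1 of 5 tested was lower, TIC55 (-0.75, SE 0.19, edgeR adjusted p = 0.00669), and 0 were higher, with a median of -0.51, and a single call among so few genes is not read as a result against the 8.18% of all genes.

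Several known regulators of these genes were higher while the members were lower. Of 14 tested, 6 were higher and 1 lower, where 8.37% and 8.18% of all genes were, so the count lower is near that of all genes. The median log2 fold change was 0.31. The list was not split into activators and repressors, so its counts do not say whether regulators moved with or against their effect. The GATA factor CGA1 had 117, 95.7 and 172 CPM after 4 h and 28.1, 30.8 and 46.8 CPM after 0 h (log2 fold change 1.87, SE 0.23, edgeR adjusted p = 1.35e-06). HY5, a bZIP activator of light-induced genes, had 222, 267 and 302 CPM after 4 h and 113, 92.3 and 107 CPM after 0 h (1.33, SE 0.17, edgeR adjusted p = 2.36e-06). In both genes all 4 h libraries stood above all 0 h libraries. The clock factor CCA1 (1.49, SE 0.23) and the phytochrome-interacting factor PIF3 (1.06, SE 0.19) also rose. GLK1 and GLK2, activators of chlorophyll genes named after their values were seen, had log2 fold changes of -0.19 and 0.15 that did not pass the test (SE 0.18 and 0.17). The 1 regulator called lower was PIF4, also named after its values were seen (-0.64, SE 0.21, edgeR adjusted p = 0.0338). The count of regulators called lower was 0 in DESeq2, on thinning all libraries to the smallest, and without any single library other than replicate 2 of the 0 h group.

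**Figure D4:**
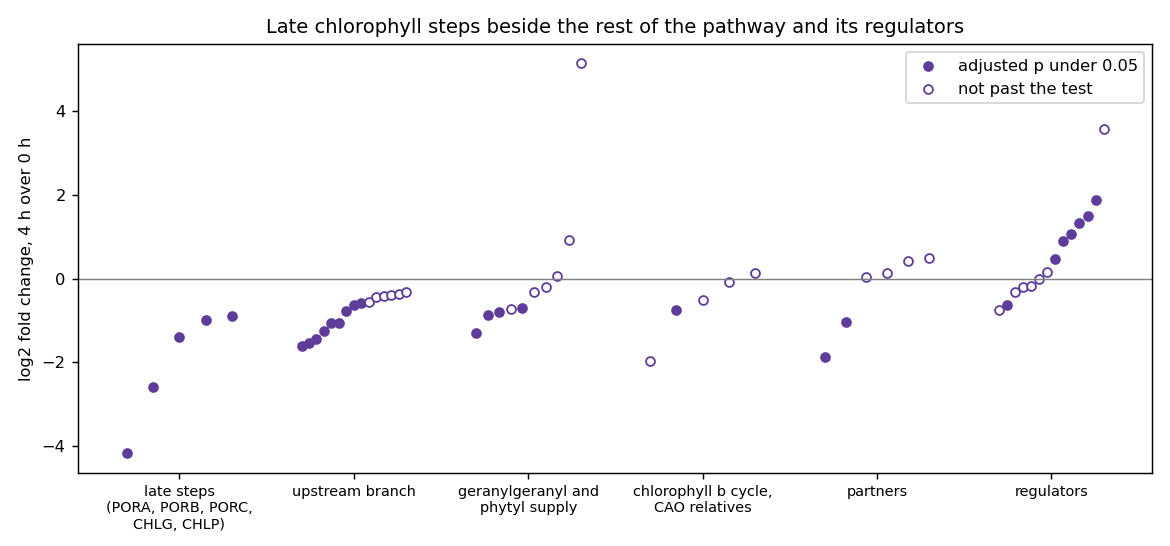
Log2 fold change, 4 h over 0 h of darkness, of every tested gene in the late steps and in 5 lists of related genes, sorted within each list. Filled points passed edgeR's test at an adjusted p of 0.05 and open points did not. All 5 late-step points are filled and below 0, and filled points above 0 occur only among the regulators, 6 of 14.

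Markers of leaf and root were read for the make-up of the seedlings. All 6 leaf markers were detected, 3 of them lower (PSAD2, CA1 and RCA, with log2 fold changes of -1.16, -0.69 and -0.61) and 0 higher (8.18% and 8.37% of all genes). In 4 of the 6 (these 3 and GAPA) every 4 h library lay below every 0 h library. So it did in the members and in 16.9% of all genes. GAPA was not called (log2 fold change -0.21, edgeR adjusted p = 0.349). The summed level of the 6 was 39570 to 49970 CPM after 4 h and 43270 to 49700 CPM after 0 h. Most of that sum came from RBCS1A, at a mean of 26900 CPM after 4 h and 27100 CPM after 0 h, and LHCB1.3, at 15900 and 14800 CPM, whose groups overlapped. Of 5 root markers tested, 1 was lower and 1 higher (8.18% and 8.37% of all genes), and their sum was 125 to 235 CPM after 4 h and 167 to 234 CPM after 0 h. The root gene called higher was TIP2;3 (log2 fold change 0.63), a call lost without replicate 1 of either group or replicate 2 of the 4 h group. That called lower was PER57 (-0.87), a call lost without replicate 2 or 3 of the 4 h group or replicate 1 or 2 of the 0 h group. Both calls were also lost in DESeq2 (adjusted p = 0.0566 and 0.372), on thinning and against 2-fold, that of TIP2;3 with upper quartile scaling, and that of PER57 in limma-voom, with 2 other filters and without organelle genes. The part of tissue make-up in the members' values was not tested. Library totals were 1012425 to 2185464 reads after 4 h and 1487666 to 1924910 reads after 0 h, so that 3 reads were worth 1.37 to 2.97 CPM.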

How the data were processed

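The authors deposited raw counts of reads per gene, made from trimmed 3′ reads mapped with STAR v2.4.2a to Araport 11 and counted with HTSeq. The submitters' processing notes also name bcl2fastq 2.17.1.14, cutadapt 1.8.3, DESeq and DESeq2. The deposited table name states that no unique molecular identifier filter was applied, so counts may include amplification copies. The authors also deposited a signal of counts divided by size factors, used here for an alternative scaling, and regularised log2 values, not used here.

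The 10622 genes reaching 5 reads in 1 or more of the 6 libraries were tested with edgeR 4.0.16 in R 4.3.3, using TMM scaling, quasi-likelihood and the group as the only term, with Benjamini-Hochberg adjustment at 0.05. The common dispersion was 0.0272. The script was tested on simulated data. Columns belonging to no sample numbered 0. Replicate pairs differed by more than sampling noise (chi-square per degree of freedom 3.17 to 6.20). Read counts limit precision, and counting intervals and the floor of 3 reads cover counting error only. Sequences, gene positions and symbols came from RefSeq for TAIR10.1, whose nuclear sequence is that of the assembly annotated by Araport 11. In that source 11108 identifiers matched a symbol or name. There "CAO" is the symbol of cpSRP43 (AT2G47450), so members were matched by identifier. Motifs were searched with Python 3.11.15.

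Members and lists were chosen with earlier results of these data known, so list counts are descriptions. Named are all members, up to 4 called genes per list by smallest p, FLU, and the 3 nearest profiles to PORB and PORC. Genes overlapping members, cpSRP43 and the leaf markers GAPA, RBCS1A and LHCB1.3 are also named, outside this rule. GLK1, GLK2 and PIF4 are marked as named after their values were seen. Alternatives were DESeq2 1.42.0, limma-voom (limma 3.58.1), other scalings and filters, a test against 2-fold, thinning, a replicate block and leaving out each library. The data list of the study ties this series to cycloheximide, but titles and labels say flu and were followed.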

Additional observations from a re-analysis of the deposited data

How the results depend on the processing

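All members kept their direction under every alternative that gave a value. PORC stayed past the threshold in all of them, with a log2 fold change between -2.68 and -2.53 over the settings that used all libraries. All 5 members stayed called lower under 4 other scalings (upper quartile, library size alone, relative log expression and the deposited size factors), in limma-voom, with no filter, without organelle genes, and with at least 5 reads in 3 libraries, a filter chosen after seeing the data. filterByExpr removed PORA and left 4 lower. DESeq2 called 3 lower, without PORA and without CHLG (-0.98, adjusted p = 0.0937). Thinning all libraries to the smallest left 4, without CHLG (-0.61, adjusted p = 0.257). Testing against 2-fold with edgeR's glmTreat called 106 genes in place of 1758 and 1 member, and the adjusted p was 0.0827 for PORA (-4.17), 0.0923 for PORB (-1.40), 1 for CHLG (-0.995) and 1 for CHLP (-0.88).

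Leaving out each library in turn gave log2 fold changes of -6.22 to -3.35 for PORA, -1.44 to -1.30 for PORB, -2.80 to -2.39 for PORC, -1.29 to -0.72 for CHLG (edgeR adjusted p between 0.0181 and 0.194) and -0.94 to -0.80 for CHLP. Between 4 and 5 members and between 1210 and 1550 genes were then called. The PORC share differed by -6.63 to -5.06 percentage points, the log2 ratio of PORC to PORB by -1.32 to -1.03 and that of PORB to PORA by 1.49 to 2.69.

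Same-numbered libraries did not deviate together (correlations of -0.01, 0.04 and 0.06), so the numbers were not read as pairs. With the replicate number as a block, 1980 genes and 5 members were called, with log2 fold changes of -4.22 for PORA, -1.39 for PORB, -2.56 for PORC, -0.97 for CHLG and -0.89 for CHLP. The blocked isoform differences were -5.92, -1.15 and 2.05, at an exact sign-flip p of 0.25, the smallest possible with 3 pairs. PORA and CHLG are limited by depth, with 1 and 54 reads after 4 h.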
